A study of Homo sapiens with 32 samples.

Results

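BAX, BAK1 and BOK, the effector members of the BCL2 family, and BCL2, BCL2L1, BCL2L2, MCL1 and BCL2A1, the guardians that hold them in check, were followed at the transcript level in U2OS cells of 4 p53 genotypes with and without etoposide. The genes were taken by name and make up 8 of the 35587 gene symbols in the deposited expression matrix. U2OS is a human osteosarcoma cell line with wild-type p53, and etoposide is a topoisomerase II poison that leaves double-strand breaks in DNA. The genotypes were p53 KO (KO), in which CRISPR-Cas9 editing removed p53, p53(+/AD) (HET), with A347D on 1 allele, p53(AD/AD) (HOM), with A347D on both, and the wild-type p53(+/+) cells (WT). A347D lies in the domain through which p53 forms tetramers, and the title of the series describes the mutant as forming dimers. Each genotype received 20 µM etoposide (ETO) or DMSO for 24 h, with 4 plates per group and 32 poly-A libraries in all. The series counts the plates as biological replicates and does not give the number of clones behind each genotype, so an effect of the genotype and of the line cannot be told apart, and p-values measure the spread between plates.

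Once activated, BAX and BAK1 form oligomers in the outer mitochondrial membrane and open pores through which cytochrome c escapes. Guardians bind the effectors and the activating BH3-only proteins in a groove, and cells differ in which guardian they depend on. BAX is a textbook p53 target gene, while p53 protein can also act at mitochondria by binding BCL2 family proteins, which transcript levels do not show.

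Promoter windows of 250 bases upstream of the annotated gene start were available from RefSeq (GRCh38.p14) for 6 of the 8 genes. Those of the pore formers BAX and BAK1, and of BCL2L1 and BCL2A1, the guardians with the largest differences between genotypes, are shown 5′ to 3′ on the gene's strand, with motif matches in capitals. Each window precedes a start as RefSeq annotates it, the second of the annotated starts in BCL2L1. Against the GENCODE 29 genes, the BCL2L1 and BCL2A1 windows lie wholly inside the gene and those of BAX and BAK1 reach into it.
BAX, chr19:48954625-48954874, plus strand: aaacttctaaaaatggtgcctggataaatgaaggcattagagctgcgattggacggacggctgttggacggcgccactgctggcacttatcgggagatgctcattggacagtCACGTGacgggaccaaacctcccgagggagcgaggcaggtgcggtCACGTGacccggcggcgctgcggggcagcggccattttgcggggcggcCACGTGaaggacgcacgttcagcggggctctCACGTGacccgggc
BAK1, chr6:33580277-33580526, minus strand: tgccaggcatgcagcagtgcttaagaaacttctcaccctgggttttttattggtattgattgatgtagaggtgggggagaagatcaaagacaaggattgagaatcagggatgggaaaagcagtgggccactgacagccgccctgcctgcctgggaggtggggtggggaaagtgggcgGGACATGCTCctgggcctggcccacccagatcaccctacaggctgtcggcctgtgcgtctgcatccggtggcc
BCL2L1, chr20:31722869-31723118, minus strand: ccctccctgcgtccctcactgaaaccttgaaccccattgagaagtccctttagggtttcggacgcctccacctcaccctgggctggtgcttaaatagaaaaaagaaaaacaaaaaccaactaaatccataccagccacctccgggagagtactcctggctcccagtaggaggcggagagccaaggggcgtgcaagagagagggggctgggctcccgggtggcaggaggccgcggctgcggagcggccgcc
BCL2A1, chr15:79971197-79971446, minus strand: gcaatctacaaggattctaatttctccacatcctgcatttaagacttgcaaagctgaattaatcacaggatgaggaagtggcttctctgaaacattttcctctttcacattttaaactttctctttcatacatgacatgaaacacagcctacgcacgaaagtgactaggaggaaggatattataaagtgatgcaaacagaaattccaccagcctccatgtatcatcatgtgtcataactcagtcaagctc
Motifs of 3 kinds were searched on both strands: the 10-base repeat unit of the p53 consensus, the NF-kB consensus and CACGTG, which reads the same on both strands. The BAX window held CACGTG at 138, 93, 45 and 14 bases before the start, and 28 of 35116 windows of the same length (0.0797%) held 3 or more copies, while 6.34% held at least 1. The BAK1 window held 1 p53 unit, GGACATGCTC, 73 bases before the start. Such a unit stood in 5.57% of all windows, and the NF-kB consensus stood in 5.21%. The matched bases are a description of these windows and not evidence of binding. The windows of BOK, BCL2, BCL2L1 and BCL2A1 held none of the 3 motifs.

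Levels are given as normalized counts, which were recovered from the deposited variance-stabilized values. The libraries held 18.25 to 24.19 M recovered counts, and replicate 2 of HET with etoposide, the shallowest, held 8.051 M. Of 8 osteoblast markers, COL1A1 and SPARC were the most abundant, IBSP was at 0 in 20 libraries, and BGLAP and COL1A2 did not exceed 26.1 and 54.2 normalized counts. Libraries 2 to 4 of HOM in DMSO stood apart: their normalized counts summed to 32.02 to 47.28 M against 16.17 to 24.68 M in every other library, and mtDNA-encoded genes took 20.7%, 21.3% and 21.9% of their counts. Across 15449 genes, their difference from replicate 1 of the group rose with the GC content of the transcript (r = 0.648, 0.558 and 0.726) and fell with its length (r = -0.238, -0.159 and -0.266). BAX, BAK1, BOK and BCL2L1, whose longest transcripts have 56.9% to 66.0% GC, were higher in these libraries than in replicate 1, while BCL2 and MCL1 (45.6% and 45.1%) were lower. BCL2L2, at 52.3%, was lower too, by log2 differences of -0.659, -0.996 and -1.32. Their part in the results was not tested, and calls of the 8 genes that use HOM in DMSO are given with and without them. Other HOM values are from all libraries unless stated. HOM in DMSO is 1 library without them, and its spread is assumed to be that of the other groups.

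Genes were tested with limma on log2(normalized count + 1), so that fold changes of low genes are understated. A gene is said to have risen or fallen where the adjusted p was under 0.05 and the change at least 1.5-fold. All 8 genes were among the 16824 tested, but BCL2A1 met the minimum of 10 normalized counts in 4 libraries only through its etoposide libraries.

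In DMSO, WT cells carried BCL2L1 and MCL1 as their main guardian transcripts. Per kilobase of the longest annotated transcript, BCL2L1, which encodes BCL-xL, averaged 2130.0 normalized counts, MCL1 816, BCL2L2 (BCL-w) 97.0, BCL2 itself 15.2 and BCL2A1 (BFL-1) 2.56. Among the effectors, BOK stood at 2037, BAX at 1405 and BAK1 at 806 per kilobase. The order of BAX and BOK depends on the transcript assumed, since BAX reached 3111 per kilobase with the median length of its coding transcripts and BOK has a single one. The 8 genes are plotted by library below in normalized counts, the scale used from here on.

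**Figure D1:**
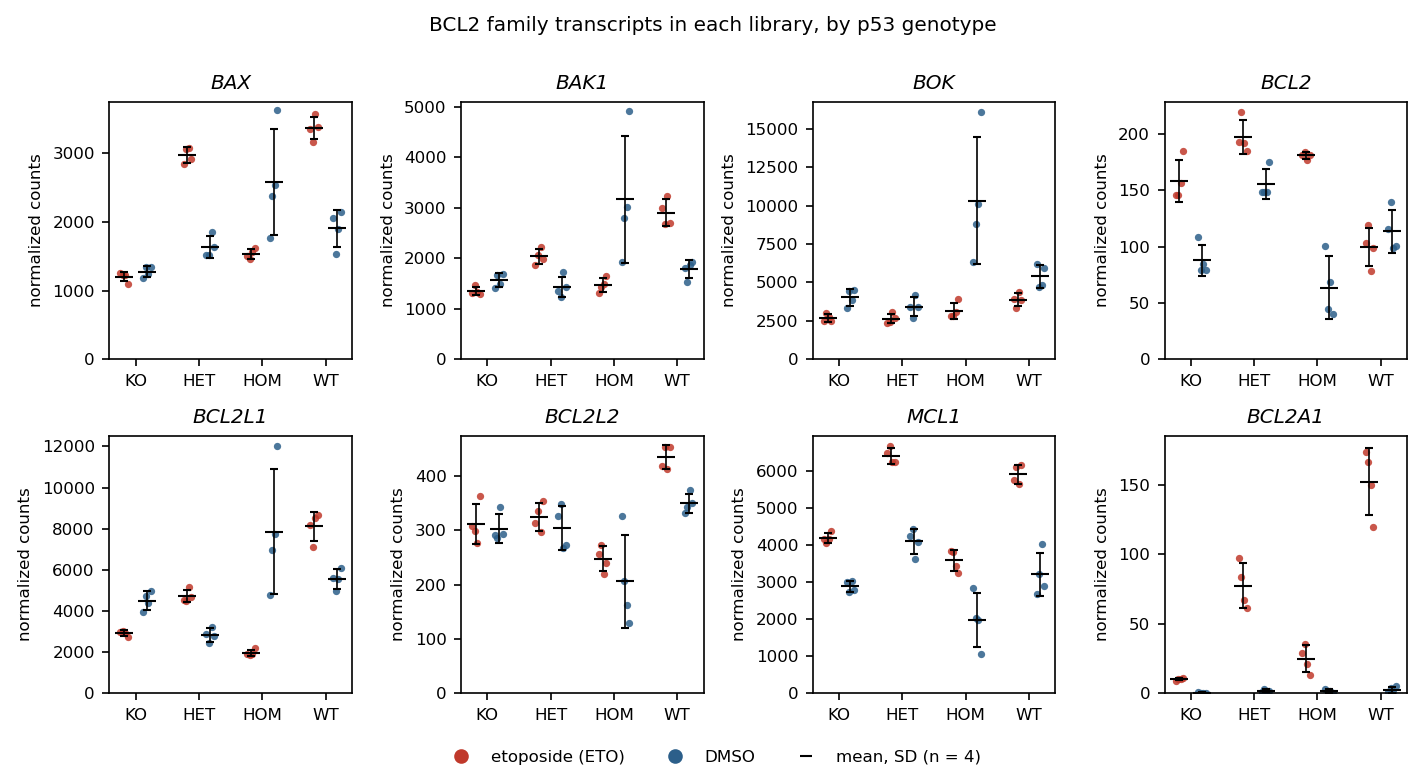
Normalized counts (vertical axis, from 0) of the 8 genes in each of 32 libraries, by genotype, with etoposide (red) left of DMSO (blue); bars are the mean and SD of 4 libraries. BAX and BCL2A1 with etoposide are highest in WT and lowest in KO, and the spread of HOM in DMSO exceeds that of the other groups in every gene except BCL2A1.

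Etoposide raised both effector and guardian transcripts in WT and HET. In WT, 4 of the 8 genes rose, BAX, BAK1, MCL1 and BCL2A1, against 20.1% of all tested genes. BCL2A1, counted here and in the other genotypes, entered the test only through its etoposide libraries, so its rises add no independent support to these counts. In HET, BAX, BCL2L1, MCL1 and BCL2A1 rose, against 17.5% of all tested genes. KO cells showed no passing change in an effector. There BCL2 and BCL2A1 rose (18.1% of all genes) and BCL2L1 fell (14.5%). In HOM, BCL2, MCL1 and BCL2A1 rose (37.2% of all genes) and BAX, BAK1, BOK and BCL2L1 fell (28.5%). Without libraries 2 to 4 of HOM in DMSO, BCL2 and BCL2A1 still rose and BOK and BCL2L1 still fell in HOM, against 20.9% and 17.3% of all genes, and the other 3 no longer passed. Scaling by total counts moved the median of all genes in HOM from 0.16 to 1.13. Under it the HOM changes were -0.015 for BAK1, -0.63 for BOK, -0.92 for BCL2L1, 2.58 for BCL2 and 1.95 for MCL1. The median log2 change of the 8 genes was 0.63 in WT, -0.024 in KO, 0.58 in HET and -0.18 in HOM, against 0.054, 0.046, 0.013 and 0.16 over all tested genes, with all HOM libraries.

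**Figure D2:**
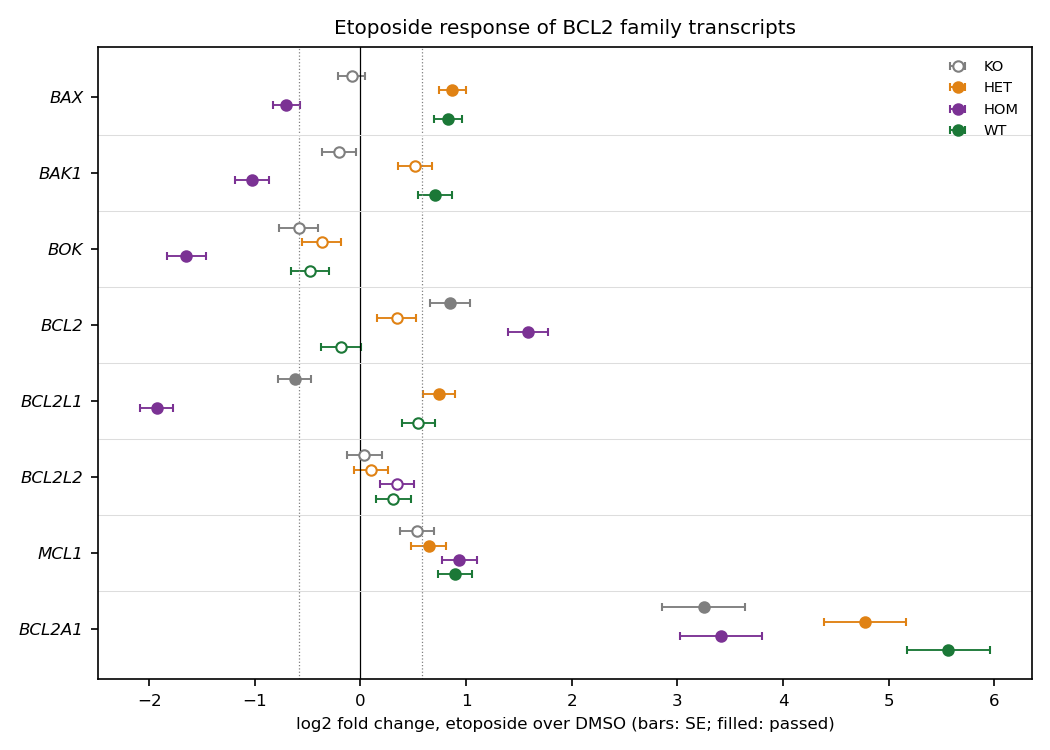
Log2 fold change of etoposide over DMSO (horizontal axis) with its SE for each gene and genotype; filled points passed the test and dotted lines mark 1.5-fold. BAX passed right of 0 in HET and WT, BCL2L1 passed left of 0 in KO and HOM, and BCL2A1 passed right of 0 in all 4 genotypes.

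BAX, the cytosolic effector that moves to mitochondria on activation, rose with etoposide in WT and HET. Its 4 WT libraries held 3352, 3174, 3571 and 3379 normalized counts with etoposide, against 2063, 1532, 1895 and 2143 with DMSO. The groups did not overlap, and the log2 change was 0.83 ± 0.13 (SE; adjusted p 4.93e-06), or 1.78-fold. HET libraries held 2849, 3065, 3080.4 and 2922 with etoposide and 1524, 1522, 1855 and 1636 with DMSO. That rise of 0.87 ± 0.13 (adjusted p 2.69e-06) was not told apart from that of WT: the responses differed by 0.04 ± 0.18, with a 95% interval of -0.34 to 0.42. In KO libraries BAX stood at 1261, 1233, 1227 and 1100.5 with etoposide and 1181, 1345, 1244 and 1342 with DMSO. These groups overlapped (log2 -0.084 ± 0.13, adjusted p 0.619; this small difference is 0.22 under total-count scaling), and the KO response was lower than the WT response by a log2 difference of -0.91 ± 0.18 (adjusted p 5.17e-04).

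HOM cells with etoposide held 1499, 1466, 1557 and 1626 normalized counts of BAX, against 1767, 2384, 2537 and 3629 with DMSO. All etoposide libraries were lower than all DMSO libraries, and the fitted change of -0.70 ± 0.13 passed (adjusted p 2.17e-05). Set against replicate 1 of HOM in DMSO alone, it was -0.20 ± 0.13 (adjusted p 0.206) and did not pass. Leaving out only library 4 of that group gave -0.52, which missed the fold minimum. Scaling by total counts gave 0.31, or -0.82 relative to the median of all genes under that scaling, and quantile normalization gave -0.077, which did not pass. The HOM response was lower than the WT response by a log2 difference of -1.53 ± 0.18 on all libraries (adjusted p 1.82e-07) and by a log2 difference of -1.03 ± 0.15 without libraries 2 to 4 (adjusted p 1.38e-05).

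With etoposide BAX was highest in WT, next in HET, then in HOM and lowest in KO, and no 2 neighbours in this order overlapped. KO was lower than WT by a log2 difference of -1.48 ± 0.13 (adjusted p 1.81e-10) and HOM by a log2 difference of -1.13 ± 0.13 (adjusted p 3.13e-08). HET differed from WT by a log2 difference of -0.18 ± 0.13, which did not pass (adjusted p 0.295; 0.068 under total-count scaling). HOM exceeded KO by 0.35 ± 0.13, or 1.28-fold, without overlap but short of the threshold (adjusted p 0.054). In DMSO, BAX was -0.57 ± 0.13 in KO against WT, with an adjusted p of 0.00268 and no overlap but a change just under 1.5-fold.

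BAK1 encodes the effector that resides in the outer mitochondrial membrane. WT libraries held 2991, 2688, 3239.8 and 2693 normalized counts with etoposide, against 1805, 1522, 1873 and 1936 with DMSO. Every etoposide library was higher, and the log2 change was 0.70 ± 0.16 (adjusted p 6.16e-04). HET libraries held 1875, 2071, 2225 and 1977 with etoposide and 1346, 1234, 1719 and 1425 with DMSO, also without overlap, and the change of 0.52 ± 0.16 missed the fold minimum (adjusted p 0.00971; 0.71 and passing under total-count scaling). In KO, BAK1 stood at 1314, 1478, 1333 and 1293 with etoposide and 1417, 1667, 1482 and 1696 with DMSO, which overlapped (log2 -0.21 ± 0.16, adjusted p 0.299; 0.10 under total-count scaling). The KO response was lower than that of WT by a log2 difference of -0.91 ± 0.23 (adjusted p 0.0043). HOM libraries held 1321, 1435, 1489 and 1655 with etoposide and 1936, 2805, 3021 and 4921 with DMSO. The change of -1.03 ± 0.16 passed (adjusted p 1.84e-06), and -0.40 ± 0.15 without libraries 2 to 4 did not reach 1.5-fold (adjusted p 0.0323). The HOM response stayed below the WT response without those libraries (-1.10 ± 0.18, adjusted p 4.41e-05; -1.73 ± 0.23 with them). Against WT with etoposide, BAK1 was lower by a log2 difference of -1.10 ± 0.16 in KO (adjusted p 2.19e-06) and by a log2 difference of -0.98 ± 0.16 in HOM (adjusted p 1.16e-05), whereas HET at -0.51 ± 0.16 missed the fold minimum (adjusted p 0.0141). HOM and KO with etoposide overlapped in BAK1. The pseudogenes BAK1P1 and BAK1P2 did not exceed 5.35 normalized counts in any library.

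BOK, a BAX-like effector that is controlled largely through degradation of its protein, did not share these rises. WT libraries held 3947, 3365, 4371 and 3830.2 normalized counts with etoposide, against 6197, 4679.8, 4854 and 5915 with DMSO. KO libraries held 2512, 3002, 2720.3 and 2478 with etoposide and 3314, 4455, 3869 and 4502 with DMSO. In both genotypes all etoposide libraries were lower, with log2 changes of -0.48 ± 0.18 in WT (adjusted p 0.033) and -0.58 ± 0.18 in KO (adjusted p 0.0103) that missed the fold minimum, in KO by a narrow margin. HET held 2373, 2432, 3045 and 2682 with etoposide and 3413, 2671, 4201 and 3393 with DMSO, which overlapped. In HOM, BOK had 2798, 2790.1, 3070.1 and 3930.3 with etoposide and 6319, 8824, 10084 and 16098 with DMSO. The change of -1.65 ± 0.18 passed (adjusted p 7.42e-09), and the fall held at -1.02 ± 0.21 against replicate 1 alone (adjusted p 2.34e-04). With etoposide none of the 4 genotype comparisons passed for BOK, although KO (-0.53 ± 0.18, adjusted p 0.0215) and HET (-0.56 ± 0.18, adjusted p 0.0181) lay below WT without overlap. In DMSO BOK was lower in HET than in WT by a log2 difference of -0.67 ± 0.18 (adjusted p 0.00401). This call ended without replicate 2 of HET in DMSO (-0.56), under total-count scaling (-0.39) and under quantile normalization (-0.41).

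BCL2L1 rose with etoposide in HET, fell in KO and HOM, and was lower than in WT in all 3 other genotypes with etoposide. BCL-xL, its main protein product, binds both BAX and BAK1, and the gene also yields the short pro-apoptotic form BCL-xS by splicing, which gene-level counts do not separate. WT libraries held 8168, 7111, 8534 and 8668 normalized counts with etoposide, against 5593, 4966, 5559.6 and 6115 with DMSO. Every etoposide library was higher, and the change of 0.55 ± 0.15 had an adjusted p of 0.0046 but was under 1.5-fold. It passed under total-count scaling (0.77), under quantile normalization (0.87), without replicate 4 of WT in DMSO (0.59) and without replicate 2 of WT with etoposide (0.61). HET libraries held 4539.9, 4505, 5158 and 4694 with etoposide and 2867, 2433, 3238 and 2793 with DMSO, a rise of 0.74 ± 0.15 (adjusted p 2.53e-04). KO libraries held 3004, 3026, 2939.5 and 2729 with etoposide and 3936, 4757, 4369.5 and 4989 with DMSO, so that all etoposide libraries were lower. This change of -0.62 ± 0.15 (adjusted p 0.00168) lost its 1.5-fold size without library 4 of KO in DMSO (-0.57) and under total-count scaling (-0.31) or quantile normalization (-0.34). The KO response was lower than the WT response by a log2 difference of -1.17 ± 0.22 (adjusted p 2.37e-04).

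In HOM, BCL2L1 had 1895, 1844, 1907 and 2196 normalized counts with etoposide, the lowest group of the 8, against 4767, 6950.0, 7727 and 12007 with DMSO. The change of -1.93 ± 0.15 (adjusted p 1.61e-11) was -1.28 ± 0.14 against replicate 1 alone (adjusted p 2.86e-08). The HOM response was lower than the KO response both with libraries 2 to 4 (-1.31 ± 0.22, adjusted p 2.24e-04) and against the single library left without them (-0.66 ± 0.16, adjusted p 0.0302), which held for none of the other 7 genes. With etoposide BCL2L1 was lower than in WT in all 3 other genotypes, by a log2 difference of -1.47 ± 0.15 in KO (adjusted p 6.78e-09), -0.78 ± 0.15 in HET (adjusted p 2.46e-04) and -2.05 ± 0.15 in HOM (adjusted p 7.95e-12). The HET call ended under total-count scaling (-0.53) and, just under 1.5-fold, under quantile normalization (-0.5845). HOM was below KO by a log2 difference of -0.58 ± 0.15, with no overlap and an adjusted p of 0.00708, just under the fold minimum. HET already stood lower in DMSO, by a log2 difference of -0.98 ± 0.15 against WT (adjusted p 9.65e-06).

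MCL1, a short-lived guardian that binds BAK1 in particular, rose with etoposide in WT, HET and HOM. WT libraries held 5745, 6092, 5644 and 6156 normalized counts with etoposide, against 2687, 3207, 4032 and 2904 with DMSO, a change of 0.90 ± 0.16 (adjusted p 4.11e-05). HET libraries held 6486, 6664, 6240.3 and 6229 with etoposide and 4256, 4430.5, 3635 and 4082 with DMSO (0.65 ± 0.16, adjusted p 0.00181). KO libraries held 4152, 4054, 4152 and 4391 with etoposide and 2998, 2743, 3029.6 and 2785 with DMSO. The KO groups did not overlap either, and the change of 0.54 ± 0.16 had an adjusted p of 0.00832 and missed the fold minimum, which it reached under total-count scaling (0.84) and quantile normalization (0.82). The KO and WT responses were not told apart (-0.36 ± 0.23, 95% interval -0.83 to 0.11). HOM libraries held 3842, 3819, 3444 and 3256 with etoposide and 2849, 2036, 1982 and 1064 with DMSO. The rise of 0.94 ± 0.16 rested on libraries 2 to 4 of HOM in DMSO, since it was 0.33 ± 0.14 without them (adjusted p 0.0501). With etoposide MCL1 was lower in HOM than in WT by a log2 difference of -0.72 ± 0.16 (adjusted p 6.46e-04). That call ended under total-count scaling (-0.50, adjusted p 0.136) and quantile normalization (-0.55, under 1.5-fold), while KO at -0.50 ± 0.16 missed the fold minimum (adjusted p 0.016) and HET at 0.12 ± 0.16 did not pass (adjusted p 0.6).

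BCL2, the founding guardian, was low in these cells and rose with etoposide in KO and HOM. WT libraries held 103, 119, 78.4 and 98.3 normalized counts with etoposide, against 115, 139.8, 98.5 and 100.1 with DMSO, and these overlapped (log2 -0.18 ± 0.19, adjusted p 0.44; 0.042 under total-count scaling). KO libraries held 146, 146, 157 and 185 with etoposide and 108, 79.2, 84.6 and 79.1 with DMSO, a rise of 0.85 ± 0.19 (adjusted p 5.13e-04). The KO response exceeded the WT response by 1.03 ± 0.27 (adjusted p 0.00563). HET held 193, 219, 192 and 184 with etoposide and 149, 148, 149 and 175 with DMSO, without overlap but without passing (0.34 ± 0.19, adjusted p 0.144). HOM held 181, 184, 176 and 181 with etoposide and 100.6, 44.8, 68.3 and 40.4 with DMSO. Its rise of 1.59 ± 0.19 (adjusted p 2.14e-08) was 0.84 ± 0.20 against replicate 1 alone and still passed (adjusted p 0.00122). With etoposide BCL2 was higher than in WT in all 3 other genotypes, by 0.67 ± 0.19 in KO (adjusted p 0.00524), 0.99 ± 0.19 in HET (adjusted p 1.48e-04) and 0.87 ± 0.19 in HOM (adjusted p 4.14e-04), and no library of the 3 overlapped with WT. The KO call ended without replicate 3 of WT with etoposide (0.56) and on the variance-stabilized scale (0.52).

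BCL2A1, a guardian best known from blood cells and a textbook NF-kB target, held under 6 normalized counts in every DMSO library and more than 9 in every etoposide library. WT libraries held 174, 167, 149.8 and 119.5 normalized counts with etoposide, against 0.953, 3.54, 0.966 and 5.11 with DMSO. HET libraries held 97.4, 84.1, 67.4 and 61.4 with etoposide and 0.875, 3.47, 1.75 and 1.77 with DMSO. HOM held 29.3, 35.7, 21.5 and 13.6 with etoposide and 3.14, 1.49, 1.75 and 0 with DMSO, and KO held 9.22, 10.4, 10.6 and 10.9 with etoposide and 0.973, 0, 0 and 0 with DMSO. With etoposide no 2 genotypes overlapped, in the order WT, HET, HOM and KO. Since the DMSO groups held 11 (WT), 9 (HET), 5 (HOM) and 1 (KO) recovered counts in all, the induction is given as a ratio of summed counts per depth, with an exact interval for counting error only. It was 58.3 in WT (32.4 to 117), 38.6 in HET (20.1 to 85.2), 13.4 in HOM (5.59 to 42.0) and 40.3 in KO (6.90 to 1625). With replicate 1 of HOM in DMSO alone, a choice made after seeing the data, the HOM ratio was 7.99 (2.67 to 39.3).

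In the fit BCL2A1 rose by 5.56 ± 0.39 in WT (adjusted p 1.34e-12), 3.25 ± 0.39 in KO (adjusted p 8.68e-08), 4.77 ± 0.39 in HET (adjusted p 3.59e-11) and 3.41 ± 0.39 in HOM (adjusted p 1.19e-08). The HOM rise was 2.57 ± 0.55 without libraries 2 to 4 (adjusted p 3.81e-04). The log2 sizes depend on the pseudocount at such DMSO levels: with 5 in place of 1 they were 4.39 in WT and 1.55 in KO. The KO response was lower than the WT response by a log2 difference of -2.31 ± 0.55 (adjusted p 0.00291; -2.84 with a pseudocount of 5), although the interval of the KO count ratio includes that of WT. Between the etoposide groups, KO was lower than WT by a log2 difference of -3.75 ± 0.39 (adjusted p 5.15e-09) and HOM by a log2 difference of -2.63 ± 0.39 (adjusted p 2.50e-06). HET at -0.97 ± 0.39 lay at the threshold (adjusted p 0.0512). HOM exceeded KO by 1.13 ± 0.39 (adjusted p 0.0386), a call that ended when any of the 4 KO libraries or of libraries 1 to 3 of HOM with etoposide was left out (adjusted p 0.0608 to 0.134). Blood cell markers were counted beside it, since they could come with BCL2A1. Of the list, CD3E, MS4A1, LYZ, CD14 and HBB did not enter the test, with at most 11.1 normalized counts in any library. PTPRC, the pan-leukocyte phosphatase CD45, and ITGAM, an integrin of myeloid cells, entered the test only through their etoposide libraries, as BCL2A1 did, so that their passing rises are no independent support. ITGAM held 13.0 to 51.1 normalized counts with etoposide and 0 to 5.26 with DMSO, and PTPRC held 8.71 to 36.4 with etoposide and 1.49 to 18.2 with DMSO. ITGAM, like BCL2A1, was lower in KO than in WT with etoposide, by a log2 difference of -1.44 ± 0.46 (adjusted p 0.0139). PTPRC went the other way, with means of 21.0 normalized counts in KO and 11.9 in WT with etoposide, which was not a passing change. It was higher in HET than in WT with etoposide by 1.27 ± 0.36 (adjusted p 0.00723). By their means with etoposide, ITGAM and PTPRC thus ordered KO and WT differently. The part of the blood cell markers in the BCL2A1 values was not tested, and in bulk RNA fewer cells of a type and less RNA per cell cannot be told apart.

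BCL2L2, which encodes a close relative of BCL-xL, did not pass in the response of any genotype. WT libraries held 418, 454, 412 and 454 normalized counts with etoposide, against 332, 343, 374 and 350.3 with DMSO, a change of 0.31 ± 0.16 that did not pass (adjusted p 0.119). The KO change was 0.036 ± 0.16 and the HET change 0.10 ± 0.16, and both groups overlapped with their DMSO libraries. HOM held 257, 274, 220.1 and 241 with etoposide and 326, 206, 163 and 129.6 with DMSO, with a fitted change of 0.35 ± 0.16 that was -0.40 ± 0.15 without libraries 2 to 4. With etoposide BCL2L2 was lower in HOM than in WT by a log2 difference of -0.81 ± 0.16 (adjusted p 1.83e-04), a call that ended under total-count scaling (-0.59, adjusted p 0.0768). KO (-0.48 ± 0.16) and HET (-0.42 ± 0.16) had adjusted p-values of 0.0195 and 0.0458 under 1.5-fold. BCL2L2 shares exons with the readthrough gene BCL2L2-PABPN1, listed at 36.9 to 263 normalized counts, so how reads were divided between the 2 is uncertain. It also overlaps HOMEZ and PPP1R3E on the opposite strand, and the strand used in counting is not given in the sources used here.

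**Figure D3:**
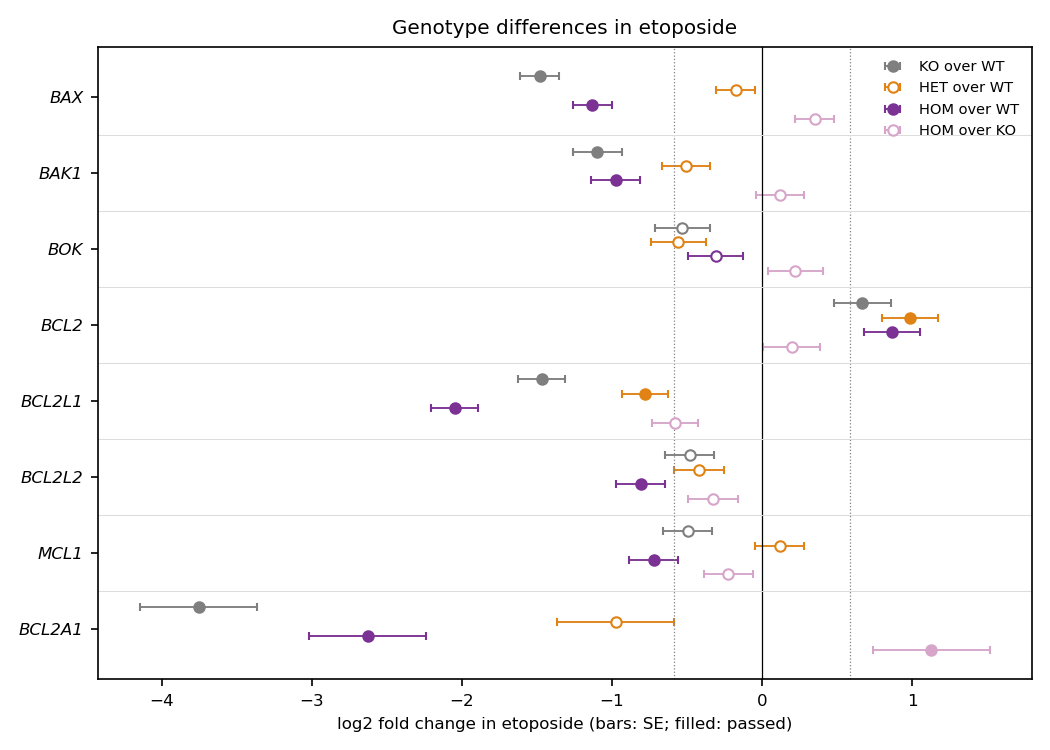
Log2 fold change between genotypes within etoposide (horizontal axis) with its SE; filled points passed and dotted lines mark 1.5-fold. BCL2 lies right of 0 and BCL2L1, BAX and BAK1 left of 0 in KO and HOM over WT, and BCL2A1 is the only passing gene of HOM over KO.

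Counted together, the etoposide groups of KO and HOM differed from WT in more of these genes than HET did. In KO, 4 of the 8 were lower (BAX, BAK1, BCL2L1 and BCL2A1), against 15.0% of all tested genes, and BCL2 was higher (11.7%). In HOM, 6 were lower, those 4 with BCL2L2 and MCL1, against 14.7% of all tested genes, and BCL2 was again higher (14.0%). Those 6 were 4 under total-count scaling, without BCL2L2 and MCL1, and 5 under quantile normalization, without MCL1. In HET, BCL2L1 was lower (13.2%) and BCL2 higher (10.1%), while BCL2A1 lay at the threshold on the lower side. KO, HET and HOM were compared with the same WT libraries. HOM against KO gave 1 passing gene, BCL2A1, which was higher, against 7.47% of all tested genes. The counts of lower genes in KO and HOM stand above these shares. Both include BCL2A1, which entered the test only through its etoposide libraries. The 8 genes were also chosen with earlier results of these data known, so the excess is a description and no independent support. The higher call of BCL2 in each, the HET calls and the single call between HOM and KO are close to the shares.

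Responses were also compared between genotypes. Against WT, the KO response was lower for BAX, BAK1, BCL2L1 and BCL2A1 (8.13% of all genes) and higher for BCL2 (7.11%). For BCL2A1 this rests on 1 recovered count of KO in DMSO, and the interval of its KO count ratio includes that of WT. The HOM response was lower for BAX, BAK1, BOK, BCL2L1 and BCL2A1 (23.9%) and higher for BCL2 (26.2%). Without libraries 2 to 4 of HOM in DMSO it was lower for BAX, BAK1, BCL2L1, BCL2A1 and BCL2L2 and higher for BCL2, against 9.48% and 8.97% of all genes. The HET response did not differ from that of WT at the threshold for any of the 8 genes in limma, where 4.75% of all genes passed, and no unadjusted p was under 0.05. The 95% intervals of these HET differences were narrowest for BAX (-0.34 to 0.42) and widest for BCL2A1 (-1.92 to 0.34), and that of BCL2 was -0.018 to 1.07. The HOM response was lower than the KO response for BAX, BAK1, BOK and BCL2L1 (19.3%) and higher for BCL2 (24.4%). Without libraries 2 to 4, BCL2L1 alone remained, against 0.779% of all genes that were then lower.

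In DMSO the comparisons without HOM gave few calls. KO against WT gave 1 passing gene, BCL2A1 (5.59% of all tested genes were lower), and no fold is given, since it rests on 1 recovered count in KO and 11 in WT. This call ended with a pseudocount of 5, on the deposited scale, with only the groups compared and without replicate 4 of WT in DMSO. HET against WT gave lower BOK and BCL2L1 (16.4%). HOM against WT gave higher BAK1 (0.75 ± 0.16, adjusted p 2.78e-04) and BOK (0.86 ± 0.18, adjusted p 2.81e-04), against 20.0% of all genes, and lower BCL2 (-0.91), BCL2L2 (-0.84) and MCL1 (-0.76), against 27.6%. With replicate 1 alone for HOM, no member passed: BAK1 stood at 0.12 ± 0.15, BOK at 0.23 ± 0.21, BCL2 at -0.16 ± 0.20, BCL2L2 at -0.10 ± 0.15 and MCL1 at -0.15 ± 0.14. HOM against KO in DMSO gave 5 higher genes (22.6%), BAX (0.97), BAK1 (0.94), BOK (1.28), BCL2L1 (0.73) and BCL2A1, and 2 lower ones (28.6%), BCL2L2 (-0.64) and MCL1 (-0.63). There were 2 higher ones without libraries 2 to 4, BOK (0.66 ± 0.21, adjusted p 0.0371) and BCL2A1, against 4.37% of all genes. The BCL2A1 call, for which no fold is given, rests on 5 recovered counts in HOM and 1 in KO. It ended with a pseudocount of 5, with no filter, on the deposited scale, under total-count scaling, with only the groups compared, with array weights, and when any of 6 single DMSO libraries of HOM or KO was left out (adjusted p 0.0597 to 0.131).

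Ratios between 2 genes within a library do not depend on how libraries are scaled, although gene-specific shifts such as those with GC content remain in them. The ratio of BAX to BCL2L1 counts was 0.791, 0.795, 0.817 and 0.741 in HOM with etoposide, against 0.371, 0.343, 0.328 and 0.302 with DMSO. Here the 4 HOM DMSO libraries lay close together, replicate 1 included. In HET the ratio was 0.632 ± 0.0350 (SD, n = 4) with etoposide and 0.579 ± 0.0387 with DMSO, and these groups overlapped. In KO it was 0.412 ± 0.00785 with etoposide and 0.284 ± 0.0127 with DMSO. WT had 0.416 ± 0.0234 with etoposide and 0.342 ± 0.0252 with DMSO. With etoposide the ratio was thus highest in HOM, then HET, and WT and KO overlapped, although BAX itself was lowest in KO and highest in WT.

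The ratio of BAX to MCL1 ordered the genotypes otherwise. With etoposide it was 0.288 ± 0.0256 in KO, 0.466 ± 0.0225 in HET, 0.431 ± 0.0548 in HOM and 0.572 ± 0.0481 in WT, so that WT was highest. In HOM with DMSO this ratio ran from 0.620 in replicate 1 to 3.41 in replicate 4. BCL2 to BCL2L1 stood at 0.0957, 0.0999, 0.0925 and 0.0825 in HOM with etoposide, against 0.0211, 0.00645, 0.00884 and 0.00336 with DMSO. In WT it was 0.0126, 0.0168, 0.00919 and 0.0113 with etoposide and 0.0206, 0.0282, 0.0177 and 0.0164 with DMSO. The HOM etoposide group was the highest of the 8 in this ratio and the WT etoposide group overlapped with HOM in DMSO at the low end. BAK1 to BCL2L1 was 0.752 ± 0.0388 in HOM with etoposide, against 0.403 ± 0.00821 with DMSO, and 0.359 ± 0.0325 in WT with etoposide, against 0.321 ± 0.0128 with DMSO. These ratios are descriptions and were not tested.

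**Figure D4:**
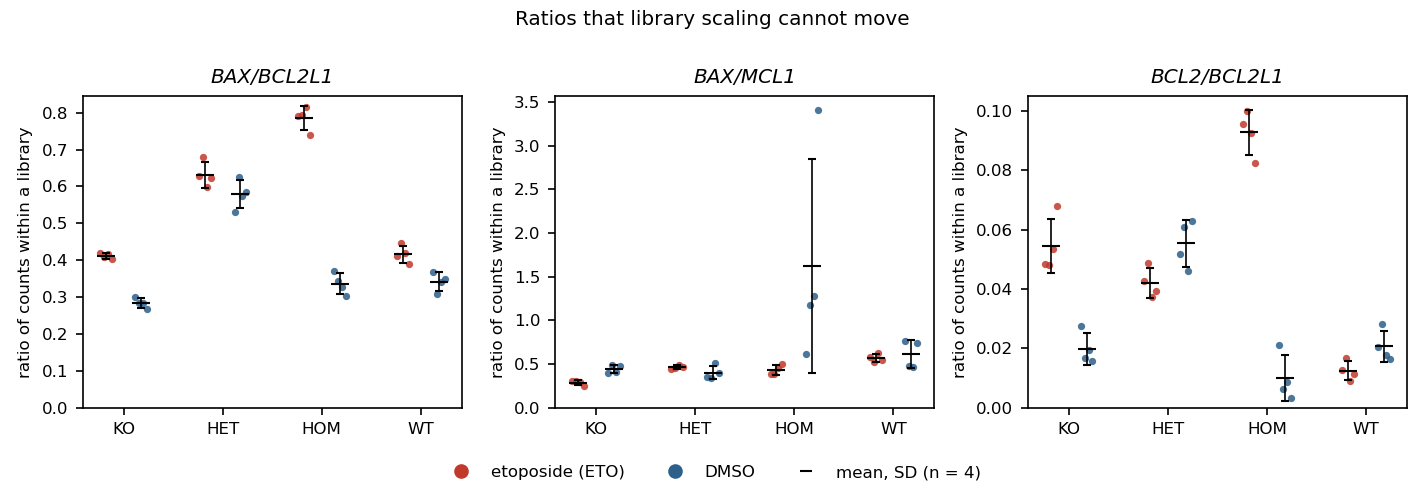
Ratio of the counts of 2 genes within each library (vertical axis, from 0), by genotype, with etoposide (red) left of DMSO (blue); bars are the mean and SD of 4 libraries. BAX to BCL2L1 and BCL2 to BCL2L1 are highest in HOM with etoposide, and BAX to MCL1 spreads widely in HOM with DMSO.

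BH3-only proteins act upstream, by activating the effectors or occupying the guardians. Of 8 BH3-only genes, 3 rose and 3 fell in WT, 3 rose and 2 fell in KO and in HET, and 3 rose and 3 fell in HOM, with the same counts in HOM without libraries 2 to 4. Of all tested genes, 20.1% rose and 14.9% fell in WT, 18.1% and 14.5% in KO, 17.5% and 12.7% in HET, and 37.2% and 28.5% in HOM (20.9% and 17.3% without libraries 2 to 4). The counts of the other lists below stand beside the same shares. BBC3, which encodes PUMA and is a textbook p53 target, rose by 1.501 ± 0.10 in WT (adjusted p 4.47e-13) and 1.49 ± 0.10 in HET (adjusted p 5.88e-13), stood at -0.10 ± 0.10 in KO (adjusted p 0.435) and fell in HOM (-0.75 ± 0.10, adjusted p 1.65e-07; -0.70 without libraries 2 to 4). PMAIP1, which encodes the MCL1-binding protein NOXA, rose in all 4 genotypes, by 2.48 ± 0.28 in WT, 2.19 ± 0.28 in KO, 2.18 ± 0.28 in HET and 3.42 ± 0.28 in HOM (2.29 without libraries 2 to 4). BIK rose in all 4 as well, by 3.36 in WT, 2.96 in KO, 2.40 in HET and 2.70 in HOM (3.84 without libraries 2 to 4). BMF and BAD fell in all 4, with changes of -3.71 ± 0.12 in WT and -2.63 ± 0.12 in KO for BMF. The KO response of BBC3 was lower than that of WT by a log2 difference of -1.60 ± 0.14 (adjusted p 1.48e-09).

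**Figure D5:**
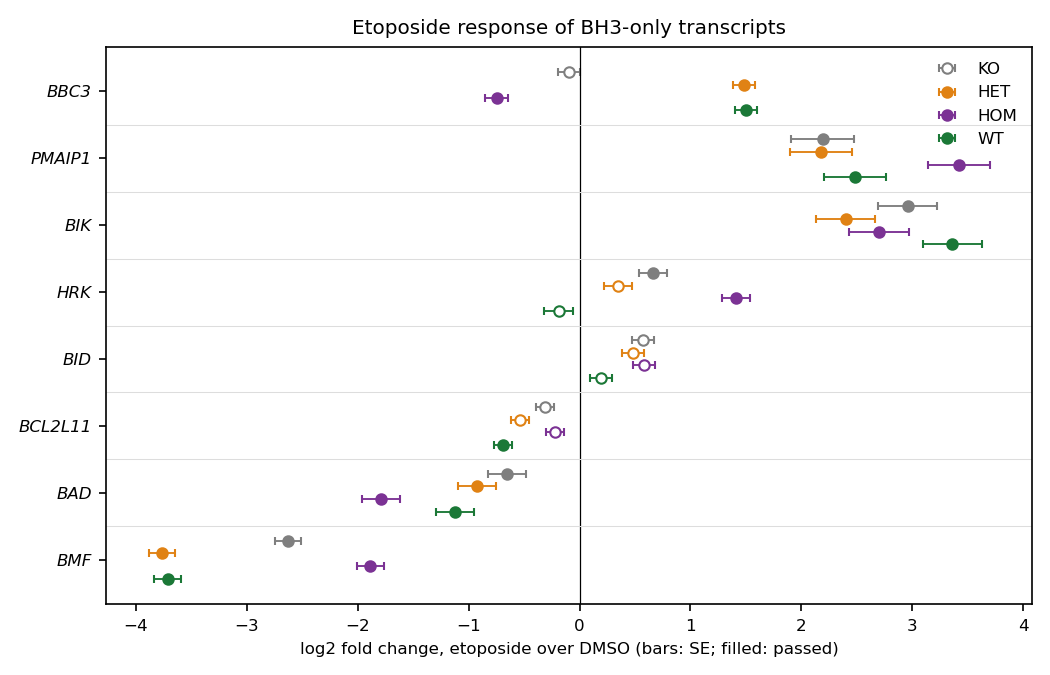
Log2 fold change of etoposide over DMSO (horizontal axis) with its SE for 8 BH3-only genes in each genotype; filled points passed. BBC3 passed right of 0 in HET and WT, PMAIP1 and BIK in all 4 genotypes, and BAD and BMF left of 0 in all 4.

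Downstream of the pores, cytochrome c and APAF1 assemble the apoptosome, which activates caspase-9. Of 12 genes of the apoptosome and its inhibitors, 4 rose and 1 fell in WT, 5 rose in KO, 3 rose in HET, and 7 rose and 3 fell in HOM (6 rose and 0 fell without libraries 2 to 4), so that in WT 4 of 12 rose against 20.1% of all tested genes. BIRC3, an inhibitor of apoptosis and NF-kB target, rose in all 4 genotypes, by 4.20 ± 0.51 in WT, 2.97 ± 0.51 in KO, 2.82 ± 0.51 in HET and 4.35 ± 0.51 in HOM (2.31 without libraries 2 to 4). HTRA2, a mitochondrial protease that opposes the inhibitors once released, fell in WT (-0.62 ± 0.14). Of 12 genes for partners and turnover of the family, 1 rose and 1 fell in WT, 2 fell in KO, 2 rose and 2 fell in HET, and 2 rose and 3 fell in HOM (1 rose and 2 fell without libraries 2 to 4). These counts lie near or below the shares of all genes, where 20.1% rose and 14.9% fell in WT. HUWE1, a ubiquitin ligase of MCL1, fell in all 4 genotypes (-0.98 ± 0.17 in WT and -1.66 ± 0.17 in KO). FBXW7, the substrate receptor of another MCL1 ligase, rose in WT (1.63 ± 0.17), HET (1.21 ± 0.17) and HOM (1.37 ± 0.17; 1.02 without libraries 2 to 4) and stood at 0.45 ± 0.17 in KO, which did not reach 1.5-fold. Its KO response was lower than the WT response by a log2 difference of -1.18 ± 0.25 (adjusted p 7.48e-04).

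NF-kB feedback genes were counted beside BCL2A1 and BCL2L1. All 9 rose in WT, KO and HET, and 7 of 9 in HOM (8 without libraries 2 to 4), with median log2 changes of 2.15 in WT, 2.46 in KO, 2.19 in HET and 2.02 in HOM (all libraries), while 20.1%, 18.1%, 17.5% and 37.2% of all tested genes rose. CXCL8, which encodes interleukin-8, rose by 6.09 ± 0.69 in KO and 3.77 ± 0.69 in HET, and the cytokine gene IL6 rose by 2.94 ± 0.26 in WT. IL6 entered the test only through its etoposide libraries, as BCL2A1 did, so its rises add no independent support to these counts. TRAF1, a signalling adaptor, was lower in KO than in WT with etoposide by a log2 difference of -1.42 ± 0.30 (adjusted p 3.50e-04) and was the 1 gene of the 9 to pass there (2 passed without libraries 2 to 4 of HOM in DMSO). BCL2A1 differed by a log2 difference of -3.75 in the same comparison. TRAF1 was already lower in KO than in WT in DMSO, by a log2 difference of -1.825 ± 0.30 (adjusted p 6.05e-05).

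Across the 32 libraries, the gene whose log2 level ran closest to BAX was DDB2, a DNA damage recognition gene, with Pearson's r = 0.948, followed by PHLDA3 (0.941) and CERS5 (0.935). BCL2A1 ran closest to DYRK3 (0.966), FAS (0.964), the death receptor, and GABRQ (0.964). For BCL2L1 the closest were PXN (0.968), ABCC3 (0.961) and S100A16 (0.958), for BAK1 FAM98C (0.973), RABGGTA (0.969) and ELL (0.958), and for BOK PRR7 (0.989), PPP1R37 (0.986) and RNF31 (0.981). MCL1 was nearest to BTBD10 (0.981), KPNA4 (0.969) and MFSD1 (0.969), BCL2 to SUV39H2 (0.964), MASTL (0.948) and PRPS2 (0.943), and BCL2L2 to TMEM87B (0.893), FAHD1 (0.892) and CCNYL2 (0.891). Among the 8 genes, BAX correlated with BAK1 at r = 0.862 and BOK with BCL2 at -0.849. The libraries share groups, depth and the composition shift of HOM in DMSO, so these values describe the libraries. Without libraries 2 to 4 of HOM in DMSO, DDB2 and PHLDA3 were still among the 3 closest to BAX (0.956 and 0.962). CERS5 was not (rank 22, 0.927). None of the 3 genes named for BCL2L2 stayed among its 3 closest (TMEM87B 0.788, FAHD1 0.774 and CCNYL2 0.743). Others left as well, such as PRPS2 for BCL2 (rank 12) and MFSD1 for MCL1 (rank 14). Without those libraries, BAX with MCL1 was 0.713 instead of 0.210.

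The authors' deposited table of KO against WT with etoposide gave log2 fold changes of -1.48 for BAX, -1.10 for BAK1, -1.47 for BCL2L1, 0.67 for BCL2 and -3.89 for BCL2A1. For HOM against KO with etoposide, the authors' deposited table gave an adjusted p of 0.0388 for BAX (log2 0.35) and 0.00249 for BCL2L1 (log2 -0.58). In HOM against WT with DMSO, the authors' deposited table listed log2 fold changes of 0.83 for BAK1 and 0.93 for BOK, from all 4 HOM libraries.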

How the data were processed

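RNA-seq of 32 poly-A libraries was used. Reads were quantified with kallisto and normalized with DESeq2 on GRCh38/hg38, per the submitters' processing notes, which give no versions. The deposited matrix holds variance-stabilized values, close to log2, made by the authors with a floor of 4.4259. Inverting them gave the authors' deposited mean to within a relative 4.4e-14, and all values divided by what 1 read is worth were whole to within 0.01. The authors' deposited tables also hold mean normalized counts as a signal, log2 fold changes with standard errors, a score and adjusted p-values. No count model was run.

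Normalized counts were tested as log2(count + 1) with limma 3.58.1 in R 4.3.3 (trend, 8 group means over all 32 libraries, 16 contrasts), and Benjamini-Hochberg adjustment ran over the 16824 genes that reached 10 normalized counts in 4 libraries or more. Tables were made with Python 3.11.15. The fit was tested on simulated data. Groups came from the labels. Transcript lengths came from GENCODE 29. The 8 genes and the gene lists were chosen with earlier results of these data known. All 8 genes were reported. From each list and comparison, up to 2 passing genes with the largest rise and up to 2 with the largest fall could be named, with BBC3 and FBXW7 followed across genotypes. Intervals of count ratios and floors cover counting error only. Intervals of response differences come from the limma SE and measure the spread between plates. The transcript of the edited gene and some list members are not reported here.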

Additional observations from a re-analysis of the deposited data

Results flagged for a closer look

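Among 64 groups of 4 libraries examined for a stray library, 3 had one far from the other 3 by Dixon's criterion, where chance gives about 1 in 20. The highest libraries stood at 175.2 normalized counts of BCL2 in HET with DMSO, 342.1 of BCL2L2 in KO with DMSO and 0.973 of BCL2A1 in KO with DMSO, the last from a single count.

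Etoposide responses differed between genotypes by limma's interaction terms. KO minus WT was -0.91 for BAX, -0.91 for BAK1, -1.17 for BCL2L1, -2.31 for BCL2A1 and 1.03 for BCL2 on the log2 scale. For BCL2A1, KO in DMSO held 1 recovered count, and the interval of the KO count ratio (6.90 to 1625) includes that of WT (32.4 to 117). HOM minus WT was -1.53 for BAX, -1.73 for BAK1, -1.17 for BOK, -2.48 for BCL2L1, -2.15 for BCL2A1 and 1.77 for BCL2. HOM minus KO was -0.62 for BAX, -0.82 for BAK1, -1.06 for BOK, -1.31 for BCL2L1 and 0.74 for BCL2. Without libraries 2 to 4 of HOM in DMSO, BOK no longer passed in HOM minus WT (-0.54), and in HOM minus KO BCL2L1 alone passed (-0.66). These comparisons share libraries.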

How the results depend on the processing

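Depth limits BCL2A1 in DMSO, clones per genotype are not given, and libraries 2 to 4 of HOM in DMSO decide many calls that use that group. Counts below are of the 8 genes, with the reported count in parentheses; causes were not tested. Total-count scaling moved the median of all genes in the HOM response from 0.159 to 1.13. The share of higher calls among all passing genes was then 91.3% in HOM (56.6%), 80.2% in KO (55.4%) and 74.7% in WT (57.5%). Under it the BAX response was 0.31 in HOM (-0.82 relative to the median) and its HOM minus KO difference 0.089 (-0.64 relative to a median of 0.73). It also gave 0 lower in the KO response (1), 2 lower in HOM (4), 2 higher (0) and 1 lower (2) in HET against WT in DMSO, 0 higher in HOM against WT in DMSO (2), 1 higher in HOM against KO in DMSO (5), 0 lower in HET against WT with etoposide (1), and 3 higher (1) and 1 lower (4) in HOM minus KO.

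Quantile normalization gave 0 lower in KO (1), 2 lower in HOM (4), 1 lower in HET against WT in DMSO (2), 0 higher (2) and 1 lower (3) in HOM against WT in DMSO, 2 higher (5) and 1 lower (2) in HOM against KO in DMSO, 1 higher in HET minus WT (0) and 1 lower in HOM minus KO (4). Without libraries 2 to 4, 2 were lower in the HOM response (4), 0 higher (2) and 0 lower (3) in HOM against WT in DMSO, 2 higher (5) and 0 lower (2) in HOM against KO in DMSO, 2 lower in HET against WT with etoposide (1), and 0 higher (1) and 1 lower (4) in HOM minus KO; BCL2L2 was 0.11 in HOM against KO in DMSO and -0.71 in HOM minus WT, and BCL2 was -0.011 in HOM minus KO. With adjusted p alone, 1 was lower in WT (0), 2 in KO (1), 2 in KO against WT in DMSO (1), 7 in KO against WT with etoposide (4), 4 in HET against WT with etoposide (1) and 1 in HOM against KO with etoposide (0), and 1 was higher in HET against WT (0) and 4 in HOM against WT in DMSO (2).

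With a mean of at least 50, 1 was higher in KO (2), 0 lower in KO against WT in DMSO (1) and 0 higher in HOM against KO with etoposide (1), the last also without a filter. A pseudocount of 5, the deposited scale and the fit on the groups compared each gave 0 lower in KO against WT in DMSO (1) and 2 lower in HET against WT with etoposide (1). The deposited scale gave 1 lower in HOM against KO in DMSO (2), 0 higher in KO against WT (1) and HOM against KO (1) with etoposide, 1 lower in HET minus WT (0) and 0 higher in HOM minus KO (1). The fit on the groups compared gave 0 higher (2) and 0 lower (3) in HOM against WT in DMSO, 3 higher (5) and 0 lower (2) in HOM against KO in DMSO and 0 higher in HOM minus KO (1). Array weights gave 2 lower in KO against WT in DMSO (1), 3 in HET against WT (1) and 1 in HOM against KO (0) with etoposide.

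Leaving out 1 library at a time gave 0 to 1 higher and 0 to 1 lower in HOM against KO with etoposide, 0 to 1 higher in KO against WT and 1 to 2 lower in HET against WT with etoposide, 1 to 3 higher in HOM against WT, 1 to 2 lower in HET against WT, 0 to 3 lower in HOM against KO and 0 to 2 lower in KO against WT in DMSO, 0 to 2 lower in the KO response, and 0 to 2 higher and 2 to 4 lower in HOM minus KO. Replicate numbers did not pair the libraries: 17 of 112 same-numbered pairs had r over 0.1, and 7 of 32 libraries correlated best with their own number. The replicate block gave 2 lower in HET against WT with etoposide (1), adding BCL2A1 (-0.97, adjusted p 4.82e-02), and changed no other call.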

Other observations

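Of 5 other BCL2 homologues, 3 were tested. BCL2L12 fell with etoposide in WT (-1.31 ± 0.14) and HET (-0.84 ± 0.14, log2). It also fell in HOM (-0.92 ± 0.14), a call that ended without libraries 2 to 4 of HOM in DMSO (-0.38). With etoposide it was higher in KO than in WT by 1.38 ± 0.14 (adjusted p 2.37e-09) and higher in HOM than in WT by 1.48 ± 0.14 (adjusted p 5.11e-10), the same direction as BCL2. BCL2L13, a mitochondrial homologue, rose by 0.59 ± 0.076 in WT.

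Of 4 epithelial markers, CDH1, which encodes E-cadherin, rose with etoposide in all 4 genotypes and KRT14, a basal keratin, fell in all 4. With etoposide, KRT14 (2.21 ± 0.18) and EPCAM (2.57 ± 0.36) were higher in KO than in WT. Their part in the results above was not tested.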
